A study of Homo sapiens with 8 samples.

Results

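The RNA levels of 39 genes of homologous recombination and of the Fanconi anaemia pathway were followed in RMG1 cells, an established line from a human ovarian clear cell carcinoma. The members were taken by symbol from a list of repair genes. The rule uses no threshold on a measured value, but the list was drawn up with earlier results of these data known. Each of the 39 matched 1 of the 57736 gene IDs in the deposited table, and all 39 were among the 16657 genes with enough counts to be tested.

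Total RNA was sequenced in 8 libraries, 2 in each of 4 groups. Wild-type RMG1 cells (RMG1_WT) carried neither change. ARID1A knockout cells were made by CRISPR and kept wild-type CAPH2. ARID1A is part of SWI/SNF, a complex that moves nucleosomes, and is often mutated in this tumour type. Cells with a control hairpin (RMG1_shControl) were labelled wild type for both genes, and knockdown cells (RMG1_shCAPH2) carried a hairpin against CAPH2 on wild-type ARID1A. CAPH2 is the protein encoded by NCAPH2 and belongs to condensin II, a complex that compacts chromosomes. The labels do not say whether the knockout is 1 clone, which hairpin sequence was used, or whether the 2 libraries in each group were grown as separate cultures. The p-values below therefore rest on a spread between libraries that could be technical only.

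Homologous recombination repairs a broken chromosome by copying from an intact sister. The MRE11, RAD50 and NBN complex binds the break and activates the kinase ATM. Nucleases then expose single-stranded DNA, and BRCA1, PALB2, BRCA2 and the strand exchange factors then guide the search for the matching sequence on the sister. The Fanconi pathway handles crosslinks between the strands: a core complex with the E2 enzyme UBE2T attaches ubiquitin to FANCD2 and FANCI, and structure-specific nucleases then act on the crosslink. Many of these genes are transcribed most in S and G2 phase, and inherited loss of several of them predisposes to breast and ovarian cancer.

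The promoter windows of ATM, CHEK2 and BRCA1 are shown because each overlaps that of a head-to-head neighbour whose values are given below: the partner of ATM moved with it in the knockout and the knockdown, that of CHEK2 in the knockdown, and NBR2, a partner of BRCA1, was not called. The windows run from 250 bases before to 50 bases after the RefSeq transcription start (GRCh38.p14), written 5′ to 3′ on the strand of the gene. ATM lies at chr11:108222817-108223116 on the plus strand, CHEK2 at chr22:28741771-28742070 on the minus strand and BRCA1 at chr17:43125315-43125614 on the minus strand. Capitals mark CCAAT, the NF-Y box, or its complement ATTGG.
ATM: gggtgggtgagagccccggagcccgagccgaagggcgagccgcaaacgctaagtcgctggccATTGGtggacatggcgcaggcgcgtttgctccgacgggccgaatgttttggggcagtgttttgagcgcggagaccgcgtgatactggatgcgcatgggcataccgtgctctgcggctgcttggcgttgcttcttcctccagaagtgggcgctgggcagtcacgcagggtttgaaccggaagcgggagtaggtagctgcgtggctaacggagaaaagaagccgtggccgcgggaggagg
CHEK2: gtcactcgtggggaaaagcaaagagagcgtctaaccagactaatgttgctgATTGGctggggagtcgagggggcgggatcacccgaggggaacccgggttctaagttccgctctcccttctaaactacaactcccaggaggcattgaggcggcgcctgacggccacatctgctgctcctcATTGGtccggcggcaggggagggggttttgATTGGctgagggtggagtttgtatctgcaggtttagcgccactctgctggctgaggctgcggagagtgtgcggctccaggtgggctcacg
BRCA1: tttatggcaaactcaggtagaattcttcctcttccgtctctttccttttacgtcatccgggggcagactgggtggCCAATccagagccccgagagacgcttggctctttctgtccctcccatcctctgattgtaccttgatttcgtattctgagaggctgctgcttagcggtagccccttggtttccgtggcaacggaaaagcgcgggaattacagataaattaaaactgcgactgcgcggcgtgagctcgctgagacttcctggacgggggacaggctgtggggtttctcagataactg
The CHEK2 window held 3 such boxes, and the ATM and BRCA1 windows held 1 each.

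Promoter windows were found in the same RefSeq table for 36 of the 39 members, and not for FANCI, NBN and RAD54B. The 36 members had 48 windows in all, some with more than 1 start, and the table held 35116 windows of the same 300 bases. CCAAT was present on either strand in 43.8% of member windows and in 34.6% of all windows. The ETS motif CCGGAAGT stood in 14.6% of member windows, against 4.14% of all windows, in BRCA2, EME1, FANCD2, MRE11, PALB2, RAD18 and RAD50. An E2F motif (TTTGGCGC, TTTCGCGC or TTTCCCGC) stood in 8.33% of member windows, against 2.74% of all windows, in EXO1, FANCC, FANCD2 and XRCC2. The CHR motif of genes transcribed in G2 (TTTGAA or TTCGAA) was in 10.4% of member windows and 16.4% of all. No member window held the AP-1 motif (TGACTCA or TGAGTCA), which 4.95% of all windows held. Windows of 1 gene can overlap and motifs were matched on both strands without regard to overlap with one another, so these shares are descriptions of sequence and not of bound factors.

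The libraries held between 24559547 and 37378691 counts. In the knockout, ARID1A RNA stood at 6.66 and 5.61 CPM (counts scaled to a common library total), against 8.80 and 12.1 CPM in wild type (log2 fold change -0.77, SE 0.16, adjusted p = 0.00274 in edgeR's quasi-likelihood test). CRISPR can inactivate a protein while its RNA persists, so this level is a weak check of the knockout label. NCAPH2 was at 8.98 and 8.74 CPM in the knockdown, against 24.0 and 25.8 CPM with the control hairpin (log2 fold change -1.49, SE 0.10, adjusted p = 1.84e-06). NCAPH2 was also lower in the ARID1A knockout than in wild type (log2 fold change -0.34, adjusted p = 0.0144). That value was -0.25 without the first knockout library and -0.26 without the second wild-type library. Relative to the median of its neighbouring genes NCAPH2 was not called (-0.23, adjusted p = 0.0888). The 8 identity genes of clear cell carcinoma that were measured summed to 3856 and 4213 CPM in wild type, 3076 and 3084 CPM in the knockout, 4676 and 4688 CPM with the control hairpin and 5434 and 5449 CPM in the knockdown. The groups stood apart in this sum, to which SPP1 gave a large part. SPP1 was at 1952 and 1704 CPM in wild type and 826.6 and 802.5 CPM in the knockout. It was at 2331 and 2363 CPM with the control hairpin and 3243 and 3198 CPM in the knockdown. The sum therefore does not show that the list moved as a whole. In the knockout 2 of the 8 rose and 4 fell (75.0% called beside 34.5% of all genes), among them CDH1 (0.96) and SPP1 (-1.17). The part of this in the members' results was not tested. Summed markers of leukocytes ranged from 0.869 to 5.34 CPM, of fibroblasts from 0.290 to 1.12 CPM and of endothelium from 0.157 to 1.03 CPM. CD3E, COL1A2 and KDR were at 0 in all libraries, but other markers differed in the knockout. PTPRC, a leukocyte marker, stood at 2.25 and 1.99 CPM in the knockout and at no more than 0.451 CPM elsewhere. The fibroblast sum was 1.12 and 1.07 CPM in the knockout and no more than 0.496 CPM elsewhere. Its marker LUM stood at 0.356 and 0.705 CPM in the knockout and at 0 elsewhere. The endothelial sum was 0.219 and 0.157 CPM in the knockout and at least 0.504 CPM elsewhere. The part of these markers in any result was not tested. In RNA from whole cultures, a smaller share of cells in 1 cycle phase and less RNA per cell cannot be told apart.

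Within wild-type cells the members differed widely in level. Scaled to CPM per kilobase of annotated exon sequence, the highest wild-type levels were those of USP1, the enzyme that removes ubiquitin from FANCD2 (88.5), and UBE2T (45.3). RAD50 followed with 26.4 and RAD51C with 25.2 on the same per-length scale. The lowest were SLX4, a scaffold for nucleases (0.905), the core complex member FANCC (0.569) and the strand exchange factors RAD51D (0.371) and RAD51B (0.252). The length joins the exons of all annotated transcripts, 12809 bases for FANCC and 11304 for RAD51D, so this ranking depends on it. In plain wild-type CPM, FANCE (5.34) and RAD54L (6.07) were below FANCC (7.29) and SLX4 (7.78).

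Loss of ARID1A was compared with wild type, and CAPH2 knockdown with its control hairpin, to ask how each perturbation altered expression. With ARID1A knocked out, ATM was about 2-fold lower, BRCA1 and FANCA were lower, and UBE2T, FANCF and CHEK2 were higher. With CAPH2 knocked down, CHEK2 and ATM were higher and RAD54L was lower. ATM thus moved in opposite directions under these perturbations, and CHEK2 in the same direction. Against the control hairpin, however, neither BRCA1 nor CHEK2 was called in the knockout. The calls of FANCF in the knockout and RAD54L in the knockdown did not hold on leaving out each library in turn.

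Of the 39 members, 8 rose and 5 fell in the knockout (adjusted p under 0.05, edgeR with Benjamini-Hochberg adjustment over all 16657 genes). This is 33.3% of members, beside 34.5% of all genes tested, so the share of members called was close to that of genes in general. The total of 13 became 8 without the first knockout library and 6 without the second. By direction, 20.5% of members rose beside 16.8% of all genes, and 12.8% fell beside 17.8%. The median log2 fold change of the members was 0.0148, and that of all genes 0.000216. Libraries of the groups did not overlap for 14 members that were higher and 12 that were lower in the knockout, where 32.7% and 31.9% of all genes behaved so.

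In the knockdown, 6 members rose and 3 fell. They make up 23.1% of the members, beside 15.8% of all genes tested. The total of 9 became 2 without the first knockdown library, 5 without the second, and 3 and 4 without the first and second control hairpin library, and the calls of ATM and CHEK2 alone held without any 1 library. Rising members were 15.4% of the list, against 7.62% of all genes, and falling members 7.69%, against 8.22%. The members' median log2 fold change was -0.00884. The libraries did not overlap for 12 higher and 12 lower members, where 29.8% and 29.2% of all genes did so. RAD51AP1, CHEK2 and FANCL rose in both comparisons, and ATM fell in the knockout and rose in the knockdown. These are 4 of the 13 members called in the knockout and 4 of the 9 called in the knockdown. The share of all genes called in both was not counted, so this overlap is a description only.

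**Figure D1:**
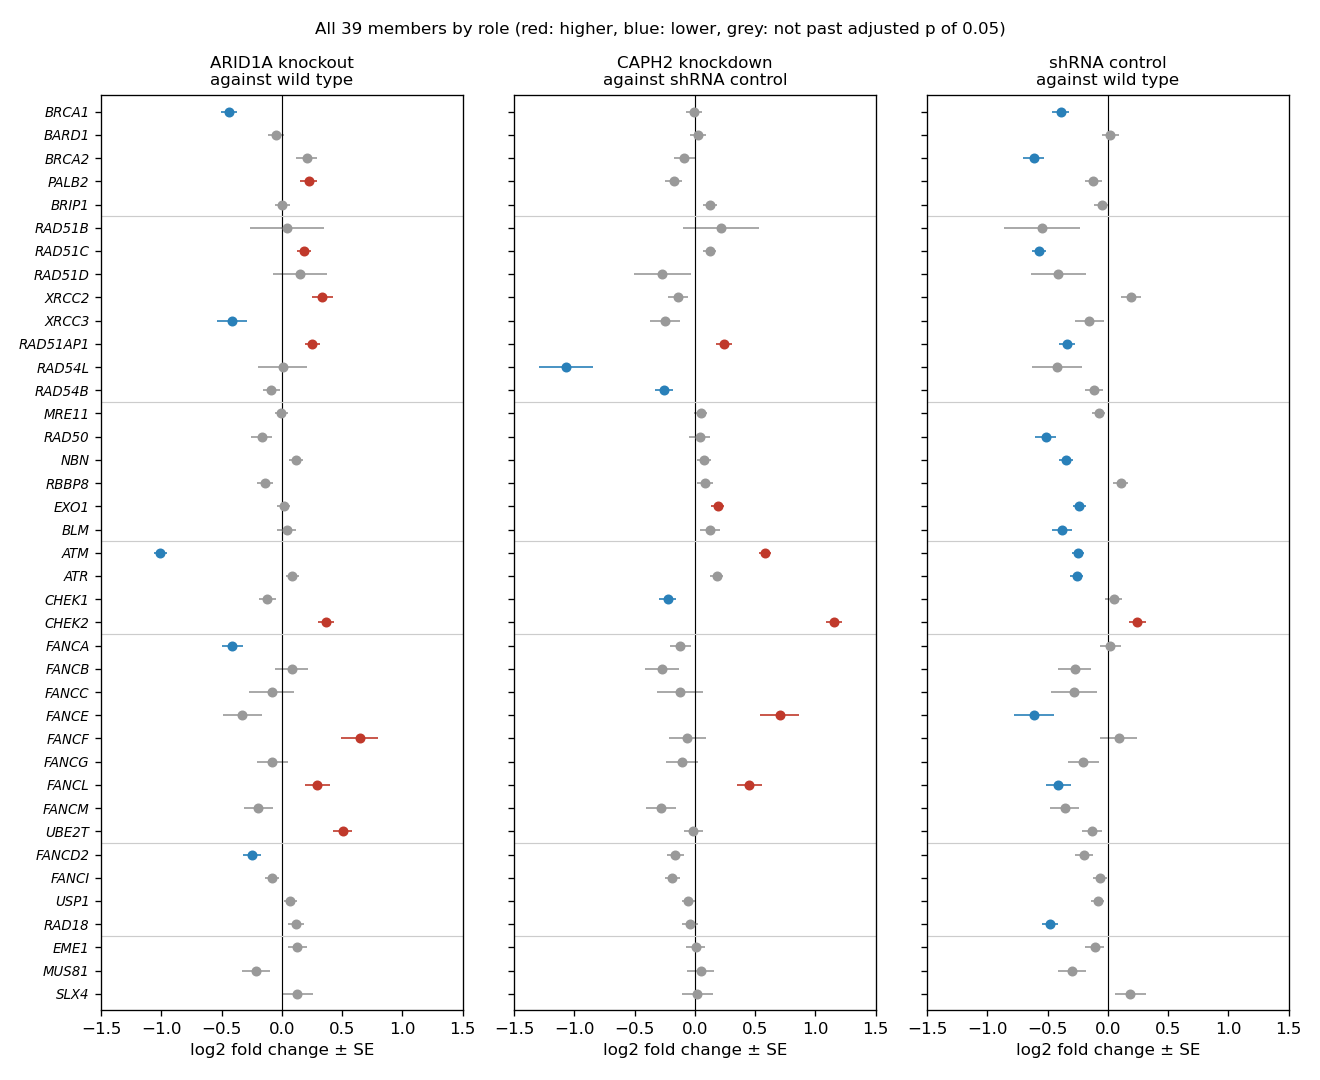
Log2 fold change (horizontal axis, bars are standard errors) of each of the 39 members, grouped by role, in the ARID1A knockout against wild type, the CAPH2 knockdown against the control hairpin, and the control hairpin against wild type, each from 2 libraries a group. Red points rose and blue points fell past the adjusted p threshold of 0.05: ATM lies at -1.01 in the knockout and CHEK2 at 1.16 in the knockdown, while 31 of 39 members lie below 0 for the control hairpin.

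The checkpoint kinases held the members that moved most. ATM, the kinase that responds to double-strand breaks, was at 242 and 246 CPM in wild type and at 120.3 and 123 CPM in the knockout. With the control hairpin it was at 209 and 201 CPM, and in the knockdown at 305 and 309 CPM. All 4 pairs of libraries were separate from one another, with the knockout lowest and the knockdown highest. The knockout lowered ATM by a log2 fold change of -1.01 (SE 0.05, adjusted p = 5.86e-08). ATM was the only member down by 2-fold or more in the knockout, as were 4.89% of all genes. In the knockdown ATM rose by 0.58 on the log2 scale (SE 0.05, adjusted p = 1.31e-05). The difference between the knockout and knockdown effects was itself past the threshold (log2 difference -1.59, SE 0.07, adjusted p = 3.81e-08).

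CHEK2, a kinase that ATM activates, was at 29.1 and 28.5 CPM in wild type and at 38.97 and 35.2 CPM in the knockout. The control hairpin libraries stood at 34.2 and 34.0 CPM and the knockdown libraries at 76.5 and 75.7 CPM. The knockdown libraries were thus far above all others, and those of the control hairpin lay just under the knockout range. The knockdown raised CHEK2 by 1.16 on the log2 scale (SE 0.07, adjusted p = 4.55e-07), and it was the only member up by 2-fold or more there, as were 1.52% of all genes. The rise in the knockout was smaller (log2 fold change 0.37, SE 0.07, adjusted p = 0.0016), and the effects differed (log2 difference -0.79, adjusted p = 8.66e-05). Against the control hairpin, CHEK2 in the knockout had a log2 fold change of 0.12 and was not called (adjusted p = 0.174). CHEK2 has many near-identical pseudogene copies, and those listed in the table held between 0 and 3 counts in any library.

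CHEK1, the kinase below ATR, was at 44.1 and 42.0 CPM in wild type, 37.6 and 41.5 CPM in the knockout, 45.4 and 43.5 CPM with the control hairpin and 38.6 and 37.3 CPM in the knockdown. It fell in the knockdown (log2 fold change -0.23, SE 0.07, adjusted p = 0.0479), a call at the edge of the threshold that was lost when any 1 of 6 libraries was left out. In the knockout its value was -0.12 (adjusted p = 0.21). ATR, which senses single-stranded DNA at stalled forks, was not called in the knockout or the knockdown. Its knockdown value only just missed the threshold (0.18, adjusted p = 0.0524). ATR fell with the control hairpin (-0.26, adjusted p = 0.00805), a call that was lost without either control hairpin library.

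**Figure D2:**
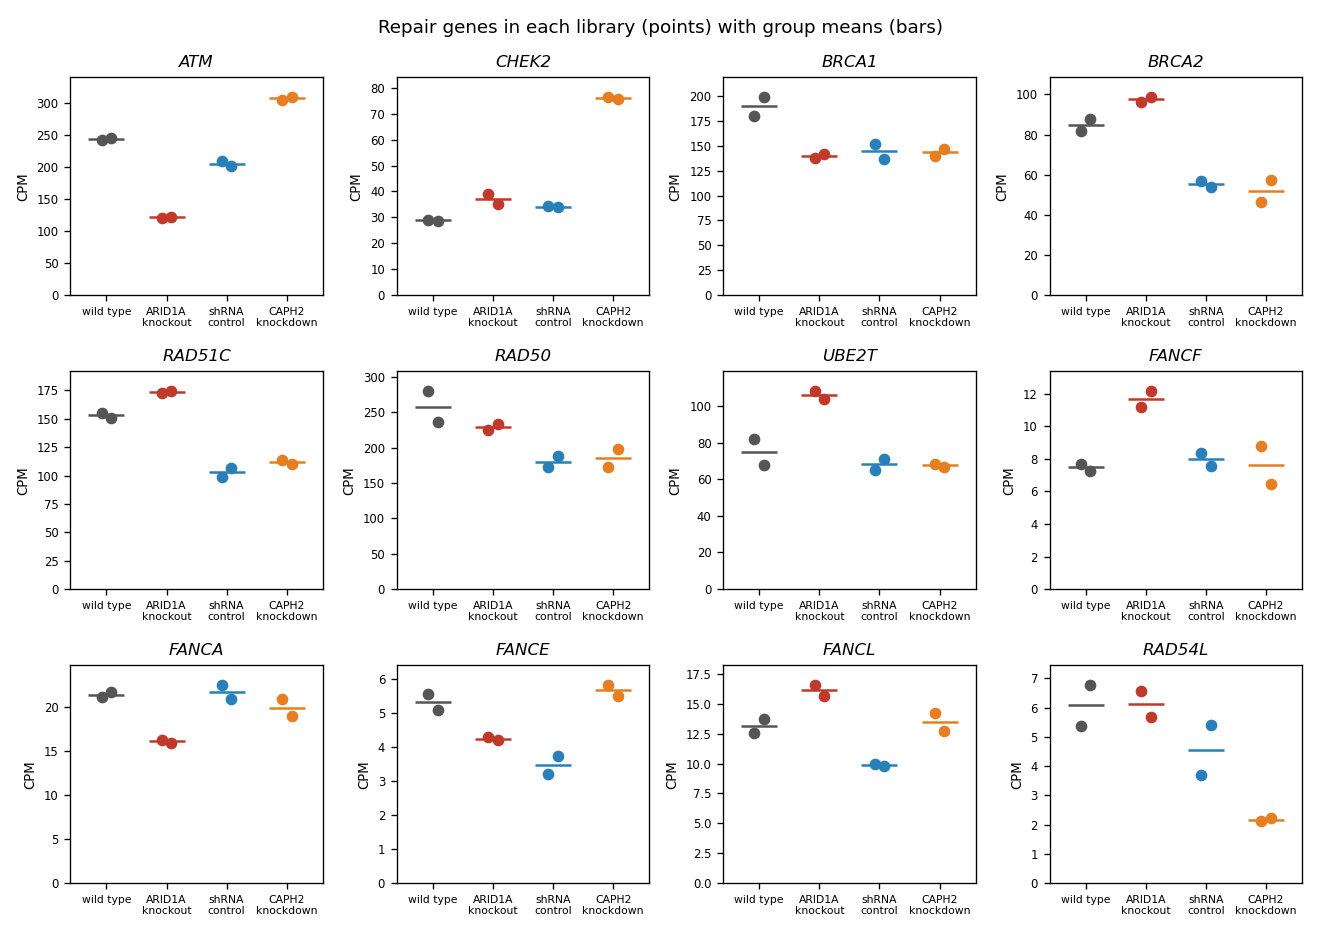
CPM in each of the 8 libraries (points, vertical axes start at 0) for the members the comparisons turn on, by group: wild type, ARID1A knockout, control hairpin and CAPH2 knockdown. ATM falls from 242 and 246 CPM to 120.3 and 123 CPM in the knockout, CHEK2 stands at 76.5 and 75.7 CPM in the knockdown, and BRCA1 is highest in wild type.

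ATM did not move alone in the knockout. Its neighbourhood was described by the 40 tested genes nearest to it in gene order, 20 on either side. Of these, 30 fell and 1 rose in the knockout, with a median log2 fold change of -0.68, where 17.8% of all genes fell and 16.8% rose. ATM fell beyond that median by 0.33 on the log2 scale (adjusted p = 0.000459 in a fit with the neighbourhood median as an offset). In the knockdown 3 of the same 40 neighbours rose and 4 fell, where 7.62% of all genes rose and 8.22% fell. Their median was 0.03, and ATM remained called above it (log2 difference 0.55, adjusted p = 1.97e-05). Both p-values take the median as fixed and leave out the spread among the neighbours. Some neighbours fell further than ATM in the knockout. The part of the neighbourhood in ATM's lower level in the knockout was not tested.

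NPAT, which is needed for histone gene transcription, starts head to head with ATM, and their promoter windows overlap by 72 bases. The choice to look at head-to-head partners and at genes beside CHEK2 was made after the values were seen. NPAT was at 47.7 and 45.7 CPM in wild type, 27.6 and 27.5 CPM in the knockout, 34.6 and 37.4 CPM with the control hairpin and 58.6 and 62.0 CPM in the knockdown. The order of the 4 groups was that of ATM. The knockout value of NPAT was -0.76 on the log2 scale (SE 0.07, adjusted p = 5.42e-06), and it rose in the knockdown (0.74, SE 0.07, adjusted p = 1.63e-05).

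HSCB, a cochaperone of iron-sulfur cluster assembly, shares 289 bases of promoter window with CHEK2. It stood at 11.5 and 11.4 CPM in wild type, 12.6 and 13.8 CPM in the knockout, 9.44 and 10.7 CPM with the control hairpin and 25.1 and 22.1 CPM in the knockdown. The knockdown libraries were again separate from all others. HSCB rose in the knockdown by 1.23 on the log2 scale (SE 0.11, adjusted p = 1.39e-05) and was not called in the knockout (0.20, adjusted p = 0.188). The next genes along, CCDC117 (log2 fold change 0.61, adjusted p = 0.000379) and XBP1, a transcription factor of the unfolded protein response (0.74, adjusted p = 5.31e-06), also rose in the knockdown. Over all 40 neighbours of CHEK2, 5 rose and 2 fell, with a median of 0.0, where 7.62% of all genes rose and 8.22% fell. All 5 that rose lay on the same side of CHEK2, within 7 places in gene order. The rest of them were ZNRF3 (0.50, adjusted p = 0.0279) and EMID1 (2.18, adjusted p = 0.0398), whose mean was 0.102 CPM with the control hairpin. A median over both sides does not show how far such a run reaches.

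Of the 39 members, 14 have such a head-to-head partner and 10 have 1 that was tested, in 11 pairs. In the knockout, 2 of the 6 pairs with a called member had both genes called the same way: ATM with NPAT, and XRCC3 with ZFYVE21 (-0.54, adjusted p = 0.00039). In the knockdown the pairs were ATM with NPAT and CHEK2 with HSCB, 2 of 2. With the control hairpin against wild type it was 1 of 5, ATM with NPAT. Among all genes tested, 16.8% rose and 17.8% fell in the knockout, 7.62% and 8.22% in the knockdown, and 9.13% and 10.1% with the control hairpin. These few pairs were not tested as a set. BRCA1 and NBR2 share 292 bases of promoter window, and NBR2 had a log2 fold change of -0.27 in the knockout (adjusted p = 0.453). How the counting treated strand is not given in the sources used here, so reads from overlapping stretches of such pairs could not be assigned.

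**Figure D3:**
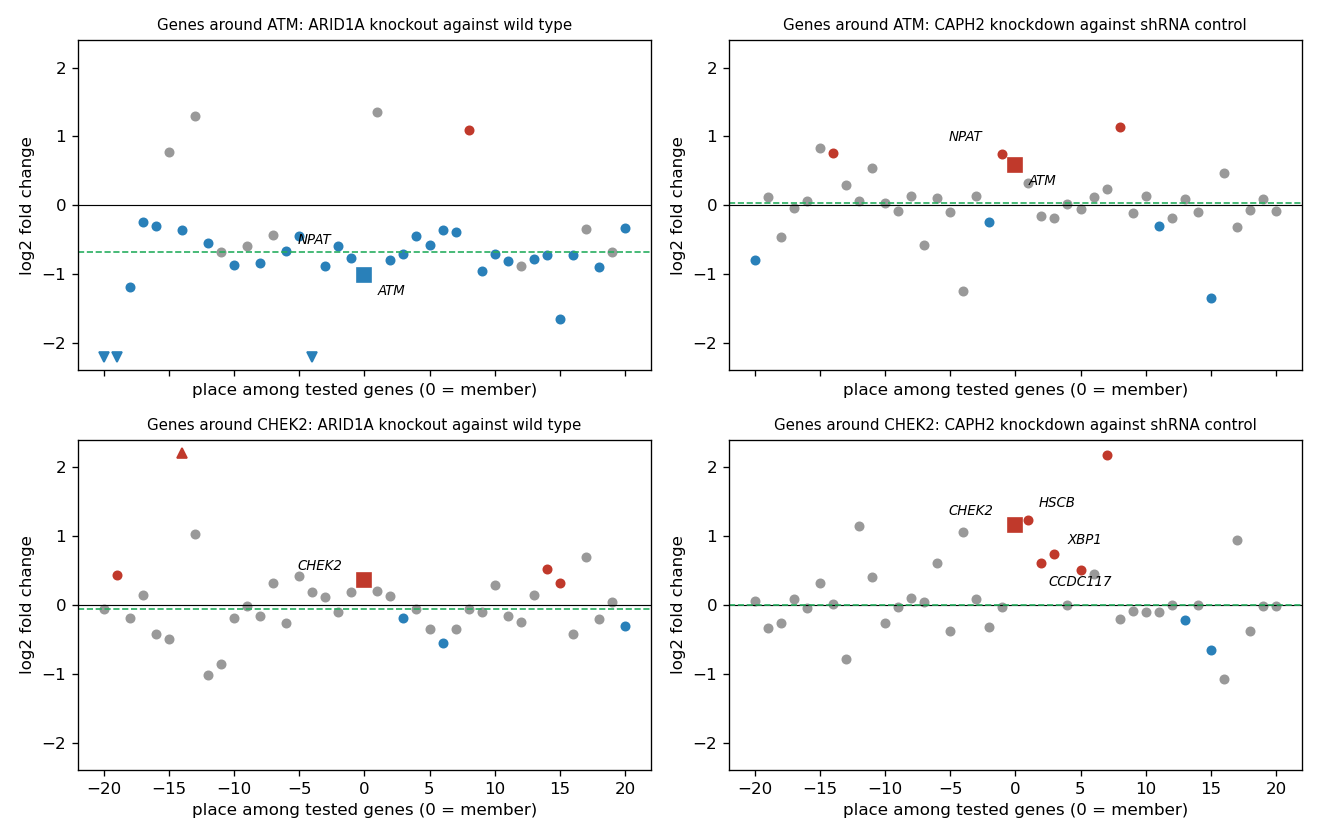
Log2 fold change of the 40 tested neighbours of ATM (top) and CHEK2 (bottom) against place in gene order, for the knockout (left) and the knockdown (right); squares are ATM and CHEK2, red and blue mark called genes that rose and fell, triangles lie beyond the axis and the dashed line is the neighbours' median. Most genes around ATM are below 0 in the knockout (median -0.68), and a few genes beside CHEK2 are above 0 in the knockdown.

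Among BRCA1, BRCA2 and their partners, 1 of 5 members rose and 1 fell in the knockout, and none was called in the knockdown. BRCA1, a ubiquitin ligase that promotes resection, was at 180.2 and 199 CPM in wild type and at 138 and 141 CPM in the knockout. It was at 152 and 137 CPM with the control hairpin and at 140.2 and 147 CPM in the knockdown. The knockout, control hairpin and knockdown libraries overlapped, and only wild type stood above them. BRCA1 accordingly fell in the knockout against wild type (a log2 value of -0.44, SE 0.07, adjusted p = 0.00042), while against the control hairpin the knockout differed by -0.05 (adjusted p = 0.617). The neighbours of BRCA1 had a median of 0.06 in the knockout. In the knockdown BRCA1 had a log2 fold change of -0.01 (adjusted p = 0.955).

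BRCA2, which acts on resected single-stranded DNA, was at 81.5 and 87.8 CPM in wild type, 96.5 and 98.7 CPM in the knockout, 56.6 and 53.8 CPM with the control hairpin and 46.5 and 57.4 CPM in the knockdown. The knockout libraries were highest and the hairpin groups lowest, whether or not CAPH2 was targeted. Against wild type the knockout value was 0.20 (SE 0.08, adjusted p = 0.0867), which missed the threshold, and the neighbours' median there was 0.22. Against the control hairpin BRCA2 was higher in the knockout by 0.82 (adjusted p = 1.68e-05). In the knockdown it had a value of -0.09 (adjusted p = 0.576). PALB2, which bridges BRCA1 and BRCA2, rose in the knockout by 0.22 (adjusted p = 0.0325), a call that was lost when any 1 of 6 libraries was left out. BARD1, the partner of BRCA1, and the helicase BRIP1 were called in no comparison against either control.

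Of the 8 strand exchange factors, 3 rose and 1 fell in the knockout, and 1 rose and 2 fell in the knockdown. RAD51C, a strand exchange factor that also acts in crosslink repair, was at 156 and 151 CPM in wild type, 173 and 174 CPM in the knockout, 99.1 and 107 CPM with the control hairpin and 114 and 110.5 CPM in the knockdown. It was highest in the knockout and lowest in the hairpin groups, the order that BRCA2 showed. RAD51C rose in the knockout by 0.18 (SE 0.06, adjusted p = 0.0253), which was lost without either knockout library or without the second wild-type library. In the knockdown its value was 0.12 (adjusted p = 0.184).

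XRCC2, which works in a complex with RAD51B, RAD51C and RAD51D, was at 45.6 and 37.8 CPM in wild type, 52.0 and 53.1 CPM in the knockout, 46.0 and 49.2 CPM with the control hairpin and 43.9 and 42.3 CPM in the knockdown. It rose in the knockout by 0.34 (SE 0.08, adjusted p = 0.00919), with its wild-type libraries further apart than the other pairs. The call was lost without the second knockout library (0.32) and without the second wild-type library (0.20). XRCC3, the partner of RAD51C, was at 16.5 and 12.6 CPM in wild type, 10.9 and 10.9 CPM in the knockout, 12.9 and 13.2 CPM with the control hairpin and 11.1 and 10.9 CPM in the knockdown. It fell in the knockout by 0.41 on the log2 scale (SE 0.12, adjusted p = 0.0241), and its 40 neighbours had a median of -0.73. Measured against those neighbours XRCC3 was higher by 0.32 (adjusted p = 0.0702), and without the first wild-type library the fall was -0.21 and not called.

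RAD54L, a motor protein that drives strand invasion, was at 5.37 and 6.77 CPM in wild type, 6.58 and 5.67 CPM in the knockout, 3.68 and 5.39 CPM with the control hairpin and 2.11 and 2.22 CPM in the knockdown. The knockdown libraries were lowest and close together, while the control hairpin libraries differed from each other. It fell in the knockdown by 1.07 on the log2 scale (SE 0.22, adjusted p = 0.00714), the only member down by 2-fold or more there, as were 1.45% of all genes. The call was lost without the first knockdown library (-1.04) and without the second control hairpin library (-0.76). Its relative RAD54B was at 48.6 and 42.6 CPM in wild type, 42.8 and 42.8 CPM in the knockout, 41.3 and 42.7 CPM with the control hairpin and 35.2 and 35.1 CPM in the knockdown. RAD54B fell in the knockdown by 0.26 (SE 0.07, adjusted p = 0.0325), with the knockdown libraries below all others, and the call was lost without any 1 of the 6 libraries other than wild type.

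RAD51AP1, which stimulates pairing of strands, was at 59.6 and 57.3 CPM in wild type, 66.1 and 73.2 CPM in the knockout, 45.6 and 46.9 CPM with the control hairpin and 54.8 and 54.5 CPM in the knockdown. It rose by like amounts in the knockout (0.25, SE 0.06, adjusted p = 0.0103) and in the knockdown (0.24, SE 0.07, adjusted p = 0.0281). The knockdown libraries nevertheless lay below those of wild type, and the control hairpin libraries were lower still. The knockout call was lost without the second knockout library (0.18), and the knockdown call without any 1 of the 4 libraries of its groups. RAD51B and RAD51D, the strand exchange factors at the lowest levels, were not called.

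None of the 6 end resection and junction processing genes was called in the knockout against wild type, where their log2 fold changes ran from -0.17 to 0.11. Without the second wild-type library, RAD50 (-0.29), RBBP8 (-0.23) and NBN (0.17) were called. Against the control hairpin 4 of the 6 were higher in the knockout and 1 was lower (66.7% and 16.7%, beside 20.9% of all genes in either direction). NBN (0.46), BLM (0.42), RAD50 (0.35) and EXO1 (0.25) were higher, and RBBP8, which starts resection, was lower (-0.25, adjusted p = 0.0087). The 4 higher genes were also those that were lower with the control hairpin than in wild type. In the knockdown 1 rose, the exonuclease EXO1 (0.19, adjusted p = 0.0331, lost without any 1 of 6 libraries), and the 6 values ran from 0.04 to 0.19. The break-binding gene MRE11 was called in none of these comparisons.

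Of the 9 genes of the Fanconi core complex and its E2 enzyme, 3 rose and 1 fell in the knockout, and 2 rose in the knockdown. UBE2T was at 81.7 and 67.9 CPM in wild type, 108 and 104 CPM in the knockout, 64.9 and 71.2 CPM with the control hairpin and 68.1 and 66.8 CPM in the knockdown. Only the knockout libraries stood apart from the rest. It rose there by 0.50 (SE 0.08, adjusted p = 0.00058), and by 0.64 against the control hairpin (adjusted p = 7.59e-05). The effects of knockout and knockdown on UBE2T differed (log2 difference 0.52, adjusted p = 0.0067).

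FANCF, an adaptor of the core complex, was at 7.69 and 7.28 CPM in wild type, 11.2 and 12.2 CPM in the knockout, 8.39 and 7.54 CPM with the control hairpin and 8.76 and 6.45 CPM in the knockdown. It also stood apart in the knockout alone, with a rise of 0.64 (SE 0.15, adjusted p = 0.00629), and the call was lost without the second knockout library (0.58). FANCA, a core subunit whose gene is often mutated in Fanconi anaemia, was at 21.1 and 21.7 CPM in wild type, 16.3 and 16.0 CPM in the knockout, 22.5 and 20.9 CPM with the control hairpin and 20.9 and 18.9 CPM in the knockdown. It fell in the knockout by 0.41 on the log2 scale (SE 0.09, adjusted p = 0.00345) and was lower there than with the control hairpin too (-0.43, adjusted p = 0.00187). The 33 neighbours of FANCA had a median of -0.27 in the knockout, and the difference of FANCA from them was -0.14 (adjusted p = 0.253). In the knockdown FANCA had a value of -0.12 (adjusted p = 0.397).

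FANCE, the subunit that contacts FANCD2, was at 5.58 and 5.11 CPM in wild type, 4.30 and 4.20 CPM in the knockout, 3.22 and 3.74 CPM with the control hairpin and 5.83 and 5.51 CPM in the knockdown. FANCL, the ubiquitin ligase of the complex, was at 12.6 and 13.7 CPM, 16.6 and 15.7 CPM, 9.93 and 9.83 CPM and 14.2 and 12.7 CPM in the same order of groups. For both genes the control hairpin libraries were the lowest, and those of the knockdown overlapped those of wild type. FANCE rose in the knockdown by 0.70 (SE 0.16, adjusted p = 0.0125), which was lost without the first knockdown library (0.65) or the first control hairpin library (0.60). FANCL rose in the knockdown by 0.45 (SE 0.10, adjusted p = 0.0123) and in the knockout by 0.29 (SE 0.10, adjusted p = 0.0444). Its knockdown call was lost without the first knockdown library (0.36) or either control hairpin library (0.46 and 0.44), and its knockout call without any 1 of the 8 libraries. FANCB, FANCC, FANCG and FANCM were not called in either perturbation. The knockdown value of FANCM was -0.28 with all libraries and -0.47 without the second control hairpin library.

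FANCD2, the protein that the core complex modifies, was at 101 and 115 CPM in wild type, 86.6 and 95.3 CPM in the knockout, 95.2 and 92.6 CPM with the control hairpin and 86.4 and 81.4 CPM in the knockdown. The knockout range included the control hairpin libraries. FANCD2 fell in the knockout by 0.25 on the log2 scale (SE 0.07, adjusted p = 0.0214), a call lost without the first knockout library (-0.18) or the second wild-type library (-0.15). In the knockdown it had a value of -0.16 (adjusted p = 0.172). Its partner FANCI, USP1 and RAD18, a ubiquitin ligase of damage tolerance, were not called in either perturbation, nor were the nuclease genes EME1, MUS81 and SLX4. FANCI only just missed the threshold in the knockdown (-0.19, adjusted p = 0.0564).

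The control groups differed from each other in many of these genes, mostly towards lower levels with the control hairpin. The control hairpin and wild-type groups share ARID1A and CAPH2 status, and wild type also serves the knockout comparison while the control hairpin serves that of the knockdown. With the control hairpin, 1 member rose (CHEK2) and 13 fell relative to wild type. These are 35.9% of the members, beside 19.2% of all genes tested. The total of 14 became 8 without either control hairpin library. The falling members are 33.3% of the list, beside 10.1% of all genes, and the 1 rising member 2.56%, beside 9.13%. No member changed by 2-fold or more, where 1.78% of all genes rose and 0.949% fell that far. The median log2 fold change of the 39 members was -0.24, and that of all genes 0.00153. Libraries did not overlap for 24 members that were lower, where 28.7% of all genes did so, and for 4 that were higher, beside 28.8%. Depth was 24559547 and 27144974 counts in wild type and 32831617 and 36731763 counts with the control hairpin.

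BRCA2 fell most between the control groups (log2 fold change -0.62, SE 0.09, adjusted p = 0.000642), followed by FANCE (-0.61, SE 0.17, adjusted p = 0.0239) and RAD51C (-0.57, SE 0.06, adjusted p = 5.85e-05). FANCE lost its call without the first wild-type library (-0.55) or either control hairpin library (-0.51 and -0.73). RAD50, the coiled-coil ATPase of the break-binding complex, was at 280.0 and 236 CPM in wild type, 225 and 233 CPM in the knockout, 172 and 188 CPM with the control hairpin and 172 and 198 CPM in the knockdown. The hairpin groups overlapped each other and lay below the other groups. RAD50 fell by 0.52 on the log2 scale with the control hairpin (SE 0.09, adjusted p = 0.00204), and its complex partner NBN by 0.35 (adjusted p = 0.00211).

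RAD18 was at 60.4 and 65.2 CPM in wild type, 66.7 and 69.5 CPM in the knockout, 44.1 and 46.0 CPM with the control hairpin and 45.0 and 42.8 CPM in the knockdown. As with RAD50, the hairpin groups overlapped and lay low, and the fall with the control hairpin was 0.48 on the log2 scale (SE 0.06, adjusted p = 0.000491). BLM, a helicase that dissolves joined chromosomes, was at 40.05 and 43.1 CPM, 42.7 and 42.8 CPM, 31.3 and 32.4 CPM and 32.0 and 37.5 CPM in wild type, knockout, control hairpin and knockdown. BLM fell by 0.38 with the control hairpin (SE 0.08, adjusted p = 0.00743), and without the first control hairpin library the call was lost (-0.36). BRCA1 fell by 0.39 (SE 0.07, adjusted p = 0.00238) and FANCL by 0.41 (SE 0.11, adjusted p = 0.0185), and ATM by 0.25 (SE 0.05, adjusted p = 0.00532). The call of ATM was lost without the second control hairpin library (-0.22), that of FANCL without either control hairpin library or the second wild-type library, and that of CHEK2 (0.24, adjusted p = 0.0304) without any 1 of 5 libraries. FANCD2 (-0.20, adjusted p = 0.0779), CHEK1 (0.05) and FANCA (0.02) were not called.

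Because of these differences the knockout was also set against the control hairpin as its reference. Then 15 members were higher and 3 lower, 46.2% of the list beside 41.8% of all genes. By direction, 38.5% of members were higher beside 20.9% of all genes, and 7.69% lower beside 20.9%. The libraries did not overlap for 25 higher and 6 lower members, where 35.8% and 36.8% of all genes did so. No member differed by 2-fold or more there, where 5.13% of all genes were higher and 5.76% lower by that much. Of the 13 members called against wild type, 8 were called in the same direction against the control hairpin: ATM, FANCA, UBE2T, FANCF, FANCL, RAD51C, RAD51AP1 and PALB2. The other 5 were BRCA1, CHEK2, XRCC2, XRCC3 and FANCD2. ATM was lower in the knockout under either reference (-0.76 against the control hairpin, adjusted p = 4.99e-07).

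Over the difference of effects, 5 members were higher and 4 lower in the knockout effect than in the knockdown effect, 23.1% beside 26.3% of all genes. Higher were RAD54L (1.08, adjusted p = 0.0218), FANCF (0.71, adjusted p = 0.0304), UBE2T, XRCC2 (0.48, adjusted p = 0.0113) and PALB2 (0.40, adjusted p = 0.0133). Lower were ATM, FANCE (-1.03, adjusted p = 0.0063), CHEK2 and BRCA1 (-0.43, adjusted p = 0.00658). On leaving out 1 library the calls of RAD54L and FANCF were each lost for 5 of the 8, that of PALB2 for 2 (the first knockout and first control hairpin library) and that of XRCC2 for the second control hairpin library (0.43).

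Each member was also set beside the median of its neighbours in the knockout. The median was taken as fixed, so the calls relative to it leave out the spread among the neighbours. Of the 13 members called in the knockout, 9 were still called in the same direction relative to their neighbours, among them BRCA1 (-0.50), CHEK2 (0.43) and FANCF (0.54). RAD51C, XRCC2, XRCC3 and FANCA were not. Another 5 members were called relative to the neighbour median without being called on their own: CHEK1 (0.28, adjusted p = 0.00901), BARD1, USP1, RAD18 and EME1.

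**Figure D4:**
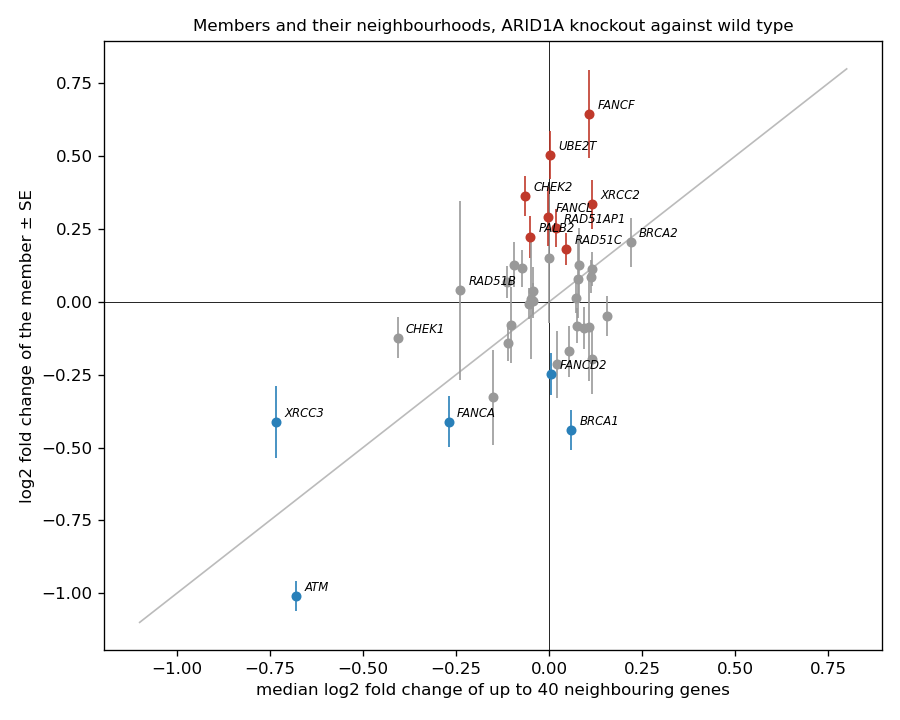
Log2 fold change of each of the 39 members (vertical axis) against the median of its tested neighbours (horizontal axis) in the knockout, with bars for the standard error, red and blue for called members and a grey line where both are equal. XRCC3 and ATM lie furthest left, with neighbour medians of -0.73 and -0.68, and BRCA1, FANCF and UBE2T lie far from the line.

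Other genes of recombination and the Fanconi pathway, 66 in number, moved about as often as genes in general in the knockout: 13 rose and 9 fell, which is 33.3% beside 34.5%. RAD52, an annealing protein, rose by 1.08 (SE 0.23, adjusted p = 0.00366), and MDC1, which binds phosphorylated histone at breaks, fell by 0.73 on the log2 scale (SE 0.11, adjusted p = 0.000362). In the knockdown 2 rose and 3 fell (7.58% beside 15.8%), with TIMELESS, a fork protection factor, lower by 0.43 (adjusted p = 0.00873) and MDC1 by 0.44 (adjusted p = 0.0192). With the control hairpin 6 rose and 14 fell (30.3% beside 19.2%), with H2AX, the histone variant marked at breaks, higher by 0.74 (adjusted p = 0.00367) and TIMELESS by 0.49 (adjusted p = 0.00429). The median of these 66 genes was -0.11 for the control hairpin against wild type, beside -0.24 for the 39 members.

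The end joining genes, which serve the competing repair route, had 2 rising and 2 falling of 15 in the knockout (26.7% beside 34.5% of all genes). In the knockdown 1 rose and 5 fell, where 15.8% of all genes were called, among them PRKDC, the catalytic kinase of end joining (log2 fold change -0.31, adjusted p = 0.00538), and POLM, a polymerase that fills broken ends (-0.74, adjusted p = 0.0217). With the control hairpin 2 fell (13.3% beside 19.2% called), XRCC4 (-0.45, adjusted p = 0.0121) and the ligase LIG4 (-0.39, adjusted p = 0.0142).

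Many of the members are transcribed with the cell cycle, so cycle genes were counted in the same fit. Of 27 genes of S phase and replication, 1 rose and 11 fell in the knockout, 2 rose and 3 fell in the knockdown, and 7 fell with the control hairpin. The falling genes were 40.7% of this list in the knockout beside 17.8% of all genes, 11.1% in the knockdown beside 8.22%, and 25.9% with the control hairpin beside 10.1%. CCNE2, a cyclin of S phase entry, fell in the knockout (-0.51, adjusted p = 0.00488) and with the control hairpin (-0.68, adjusted p = 0.00203), and PCNA, the sliding clamp, with the control hairpin (-0.41, adjusted p = 0.000343). Of 20 genes of G2 and mitosis, 9 rose and 2 fell in the knockout and 13 fell in the knockdown, where PLK1 (-0.52, adjusted p = 0.013) and AURKB (-0.51, adjusted p = 0.0101), both mitotic kinases, were among them. In the knockout, MKI67, a proliferation marker, fell (-0.91, adjusted p = 5.4e-07) while UBE2C, an E2 enzyme of mitotic exit, rose (0.68, adjusted p = 2.1e-05). With the control hairpin 3 of the 20 rose and 4 fell (35.0% called beside 19.2%). Of the 20, 45.0% rose in the knockout beside 16.8% of all genes, and 65.0% fell in the knockdown beside 8.22%. The part of these cycle genes in the members' differences was not tested.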

How the data were processed

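RNA was measured in 8 libraries of RMG1 cells, 2 in each of 4 groups taken from the sample labels. The values are expected counts per gene, deposited by the authors in 1 table with a column for each library and no pooling. Per the submitters' processing notes, Bowtie2 and RSEM 1.2.12 were used with hg19. The version of Bowtie2, the annotation and how strand was treated: not given in the sources used here. Per the labels' protocols, libraries were made from total RNA with a TruSeq kit.

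All values were whole, so rounding changed 0 of them, and 0 columns were left unused. Symbols were matched for 52301 of 57736 IDs. PECAM1 matched none. Some listed genes are not reported here. CPM were scaled to TMM library sizes, and levels per kilobase used GENCODE 29 exon lengths. edgeR 4.0.16 in R 4.3.3 (filterByExpr, TMM, quasi-likelihood test, group means over all 8 libraries) tested 16657 genes with 4 residual degrees of freedom and a biological coefficient of variation of 7.74%. P-values were adjusted by Benjamini-Hochberg over all genes tested, and a gene was called at an adjusted p under 0.05. The procedure was tested on simulated data. At depths of 24559547 to 37378691 counts, the low members FANCF and FANCE had standard errors of 0.15 and 0.16 on the log2 scale, and ATM 0.05.

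Members and lists were chosen with earlier results of these data known. Library values are given for up to 8 called members with the largest changes per comparison, and for BRCA1, BRCA2, FANCD2, FANCA, ATM, RAD51C and CHEK1. Of other lists, up to 2 called genes per comparison are named. NPAT, HSCB, CCDC117, XBP1, ZNRF3, EMID1, ZFYVE21, NBR1, NBR2, PTPRC and LUM were named after their values were seen. Alternatives were DESeq2 1.42.0, its size factors, no filter, a replicate block, 4 libraries only, a neighbour offset, the control hairpin as reference, and leaving out each library. Replicate numbers did not pair the libraries. Libraries of a group correlated at 0.981 to 0.987 (Pearson's r of log2 CPM across genes, which are not independent), and their counts differed by more than sampling noise, with a chi-square per degree of freedom of 4.31 to 19.9.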

Additional observations from a re-analysis of the deposited data

Results flagged for a closer look

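For 9 members the effect of the ARID1A knockout and that of the CAPH2 knockdown differed in a test of the difference itself (edgeR's quasi-likelihood test, adjusted over 16657 genes, 2 libraries a group). They are 23.1% of the members, beside 26.3% of all genes tested, so members were called no more often than genes in general. The knockout effect was lower for ATM by 1.59 on the log2 scale (-1.59, adjusted p = 3.81e-08), for FANCE (-1.03, adjusted p = 0.0063), for CHEK2 (-0.79, adjusted p = 8.66e-05) and for BRCA1 (-0.43, adjusted p = 0.00658). It was higher for RAD54L (1.08, adjusted p = 0.0218), FANCF (0.71, adjusted p = 0.0304), UBE2T (0.52, adjusted p = 0.0067), XRCC2 (0.48, adjusted p = 0.0113) and PALB2 (0.40, adjusted p = 0.0133). The calls of ATM, CHEK2, BRCA1, FANCE and UBE2T held when any 1 of the 8 libraries was left out, and the other 4 did not. Each effect has its own control group, and the control hairpin differed from wild type, past the threshold, for FANCE (-0.61), BRCA1 (-0.39), ATM (-0.25) and CHEK2 (0.24).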

How the results depend on the processing

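Counts of members moved when each of the 8 libraries was left out in turn. In the knockout the 8 rising members became 2 to 7 and the 5 falling members 3 to 6. The knockdown counts of 6 and 3 became 2 to 7 and 0 to 4, and those of the control hairpin against wild type, 1 and 13, became 0 to 3 and 8 to 13. For the difference of effects, 5 higher became 2 to 4 and 4 lower became 4 to 6. The knockout total of 13 was 8 without the first knockout library and 6 without the second. The knockdown total of 9 was 2 without the first knockdown library, 5 without the second, and 3 and 4 without the first and second control hairpin library. The control hairpin total of 14 was 8 without either control hairpin library. Calls that held without any 1 library were 5 of 13 in the knockout (BRCA1, ATM, CHEK2, FANCA, UBE2T), 2 of 9 in the knockdown (ATM, CHEK2) and 6 of 14 for the control hairpin (BRCA1, BRCA2, RAD51C, RAD50, NBN, RAD18).

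With 4 libraries only, 5 members rose in the knockout, 5 fell in the knockdown and 0 rose with the control hairpin. With the control hairpin as reference, the knockout had 15 higher and 3 lower. DESeq2 called 6 up and 4 down in the knockout, 5 and 2 in the knockdown and 0 and 11 for the control hairpin, where edgeR called 1 up; of end joining genes it called 2 in the knockout and 3 in the knockdown. Relative to neighbours the knockout values changed sign for BRCA2 (-0.0153), XRCC3 (0.32) and CHEK1 (0.28). In the knockdown BRCA1 ranged from -0.0854 to 0.0695 and BRCA2 from -0.2474 to 0.0465 on leaving out 1 library, both around 0 and not called. Of the settings for single named members, 593 kept direction and call, 120 lost the call, 6 gained it and 6 changed sign. The cause of these changes was not tested.

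Same-numbered libraries did not deviate together (correlations of deviations from -0.0239 to 0.0296), so the numbers do not pair them. With a replicate block the counts were 7 up and 5 down in the knockout, 6 and 2 in the knockdown, 1 and 13 for the control hairpin and 5 and 4 for the difference of effects. With 2 libraries a group, members at a few CPM such as RAD51B and RAD51D had the least power, and a missed threshold does not show that they did not differ.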

Other observations

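NBR1, an autophagy receptor, has a promoter window that overlaps a window of BRCA1 by 181 bases. This is the largest overlap over all starts of both genes, and it need not be with the BRCA1 window shown above. NBR1 rose in the knockdown (log2 fold change 0.38, SE 0.05, adjusted p = 0.000532, edgeR) and with the control hairpin against wild type (0.25, adjusted p = 0.00762). BRCA1 stood at -0.01 and -0.39 in the same comparisons. NBR1 was looked at after its values were seen.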
